A study of Mus musculus with 3 samples.

Results

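Poised TBX5 peaks near genes were examined in hearts of E14.5 mouse embryos. They are the peaks of the deposited table that its authors classed as poised and not at a promoter, and whose summit lay at most 50000 bp from the transcription start to which the table measures its distance. There were 969 such peaks among the 12436 of the list, which holds 1763 poised peaks in all. The study holds 2 TBX5_ChIP samples, for which chromatin was precipitated with anti-TBX5, and 1 Input sample without that step. All 3 came from hearts of E14.5 embryos of CD-1, an outbred stock, with no genetic change or treatment given in the labels. Peaks were called once on the pooled TBX5 samples, so no value per replicate exists here and no difference could be set against the spread between replicates. Chromatin of whole hearts mixes cardiomyocytes with other cells, and a peak does not say in which of them TBX5 was bound.

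TBX5 belongs to the T-box transcription factors and acts in heart and forelimb development, and loss of one copy in humans causes Holt-Oram syndrome, with septal and conduction defects. T-box proteins recognise a short DNA element whose core reads AGGTGT. Active enhancers usually carry both H3K4me1 and H3K27ac on their histones. Enhancers with H3K4me1 alone are called poised or primed, and H3K27me3 marks Polycomb repression. TBX3, a relative of TBX5, represses working-muscle genes in the conduction system.

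The label of the class held in the data. All 1763 poised peaks, and no other peak, were non-promoter peaks with H3K4me1 in at least 1 of its 2 region files and neither H3K27ac nor H3K27me3. By this rule 0 of the 969 peaks overlapped H3K27ac or H3K27me3, against 73.5% and 1.63% of all peaks. "Poised" thus names a combination of region overlaps, and the sources used here give neither tissue nor stage of these regions. Poised peaks within 50 kb are set below beside the 794 poised peaks beyond 50 kb and the 4129 active non-promoter peaks within 50 kb. The first of these sets differs by distance. The active set differs by class, and 201 of its peaks had H3K4me1 in neither file, which no poised peak can have.

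Sequence could be shown for the few peaks that reach a promoter window of RefSeq (GRCm38.p6, the assembly that mm10 names). They are shown because these peaks are classed as distal by the deposited distance yet lie at a listed RefSeq start that this distance does not use. Each stretch is on the minus strand, 5′ to 3′, and capitals mark bases within 20 bp of the summit. The first is the whole peak at chr7:43466439-43466613, in the body of Vsig10l, with its summit 74 bp from the start of the long noncoding RNA (lncRNA) gene Gm39000. The second covers 145 of the 245 bp of a peak named after Ahdc1, at chr4:133008103-133008247, with its summit 55 bp from the start of the lncRNA gene Gm36599. That summit, at 133008097, lies just outside the stretch. The last covers 67 of 208 bp of a peak at Lnp1, at chr16:56928123-56928189, whose summit lies outside the stretch and 336 bp from the listed start.
Gm39000: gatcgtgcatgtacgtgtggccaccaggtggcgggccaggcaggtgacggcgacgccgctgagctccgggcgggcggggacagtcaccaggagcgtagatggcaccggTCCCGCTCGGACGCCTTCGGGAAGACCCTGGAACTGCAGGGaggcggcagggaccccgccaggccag
Gm36599: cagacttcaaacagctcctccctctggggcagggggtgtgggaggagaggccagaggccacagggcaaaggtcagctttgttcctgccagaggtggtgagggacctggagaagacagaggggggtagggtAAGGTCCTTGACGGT
Lnp1: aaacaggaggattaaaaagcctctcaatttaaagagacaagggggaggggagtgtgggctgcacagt

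None of these stretches holds the letters AGGTGT on either strand. Of all promoter windows of the reference, 8.72% hold them within the first 175 bases, 7.48% within 145 and 3.44% within 67. These first bases are the most upstream of each window, and the printed stretches need not lie in that part. Over whole windows of 300 bases the share was 18.4% (95% interval 16.3 to 20.5) in the 1378 windows with a TBX5 summit of any class and 13.5% in the 31473 without one. The Gm39000 peak was 72.0% GC, with 3.72-fold enrichment (2.01 to 6.41) at a deposited distance of 3252 bp, and overlapped H3K4me3, H3K9ac and TBX3 regions. The Gm36599 peak, at 4.16-fold (2.40 to 6.79), overlapped H3K9ac. The Lnp1 peak had 3.85-fold enrichment (2.08 to 6.63) at a deposited distance of -42112 bp. In all, 23 of 945 poised peaks within 50 kb on the chromosomes with listed starts, or 2.43%, lay within 2000 bp of a listed RefSeq start that the deposited distance does not use, 22 of them at lncRNA genes. By class, no summit lay within 2000 bp of its assigned start, so only starts that the deposited distance does not use could be counted. The share near such starts was not computed for the other sets of peaks. H3K9ac was present at 6 of these 23 peaks (26.1%), beside 5.88% of all 969. H3K4me3 was present at 2, beside 4.75% of all 969.

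The deposited distance also starts at microRNA genes. For 26 poised peaks within 50 kb (2.68%) it could be traced to a microRNA hairpin, beside 4.66% of poised peaks beyond 50 kb, 2.74% of active non-promoter peaks within 50 kb and 2.50% of all peaks. Their fold enrichment had a median of 6.12 and a range of 3.25 to 33.2. Of these 26 peaks, 17 lay in the body of a protein-coding gene, and 11 lay over 50000 bp from every other listed start. The microRNAs below come from 4 of the 25 hairpins, chosen after their values were seen to span the fold range. The mature RefSeq sequences are printed 5′ to 3′ with the seed (bases 2 to 8) in capitals.
mmu-miR-669n: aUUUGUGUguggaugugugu
mmu-miR-218-5p: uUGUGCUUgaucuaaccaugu
mmu-miR-193b-3p: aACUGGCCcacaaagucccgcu
mmu-miR-29b-3p: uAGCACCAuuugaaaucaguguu

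The peak of miR-669n lay in the zinc transporter gene Slc30a7 with 33.2-fold enrichment, 4761 bp upstream of the hairpin. The peak of miR-218 lay in Slit3 with 15.7-fold enrichment, 46672 bp upstream of Mir218-2. Lower values stood near miR-193b (5.77-fold) and Mir29b-1 (3.25-fold), a member of the miR-29 family that represses collagen genes. Among 32 mature sequences of these hairpins, 0 shared a seed with another.

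Poised peaks within 50 kb had a median strength close to that of active peaks near genes. Fold enrichment is the authors' ratio, at the summit of a peak, between pooled ChIP fragments and local background. Its median was 6.18 (95% interval of the median 6.04 to 6.40), with quartiles of 5.01 and 8.46 and a range of 2.71 to 60.4. It was 6.80 (6.45 to 7.04) in poised peaks beyond 50 kb, 6.01 (5.89 to 6.11) in active non-promoter peaks within 50 kb and 5.67 in all peaks. The ratio of the median to that of active non-promoter peaks was 1.03. Dividing opposite ends of the median intervals of both sets gave bounds of 0.989 to 1.09. These bounds are wider than a 95% interval of the ratio, and they held 1.

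The parts of the ratio differed more than the ratio did. The summit pileup, which counts the pooled ChIP fragments there, had a median of 19 (19 to 20) in poised peaks within 50 kb, 20 in poised peaks beyond 50 kb and 22 in active peaks. The median background was 2.12 fragments in both poised sets, against 2.83 in active peaks. Background stood at its lowest value in 14.6% of poised peaks within 50 kb, in 20.8% of those beyond, in 3.78% of active peaks and in 9.10% of all peaks. Poised peaks near genes thus had both fewer ChIP fragments and a lower background than active ones at a like ratio. Median widths were 233 bp near genes, 245.5 bp beyond 50 kb and 266 bp in active peaks. Median −log10 q was 8.80 (8.32 to 9.39), beside 9.96 in poised peaks beyond 50 kb and 9.72 in active peaks.

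A fold of at least 20 was reached by 26 poised peaks within 50 kb (2.68%, 1.76 to 3.91), by 4.66% (3.30 to 6.37) of those beyond, by 5.45% (4.78 to 6.19) of active peaks and by 4.07% (3.73 to 4.43) of all peaks. Of these intervals, that of active peaks did not overlap that of poised peaks near genes, and the others did. A fold of at least 10 was reached by 174 (18.0%, 15.6 to 20.5), beside 23.4% (20.5 to 26.5), 20.1% (18.9 to 21.4) and 16.7% (16.0 to 17.4) in the same order. The 95th percentile of fold was 16.6 near genes, 19.3 in poised peaks beyond 50 kb and 20.7 in active peaks. Intervals cover counting error only and treat peaks as independent.

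**Figure D1:**
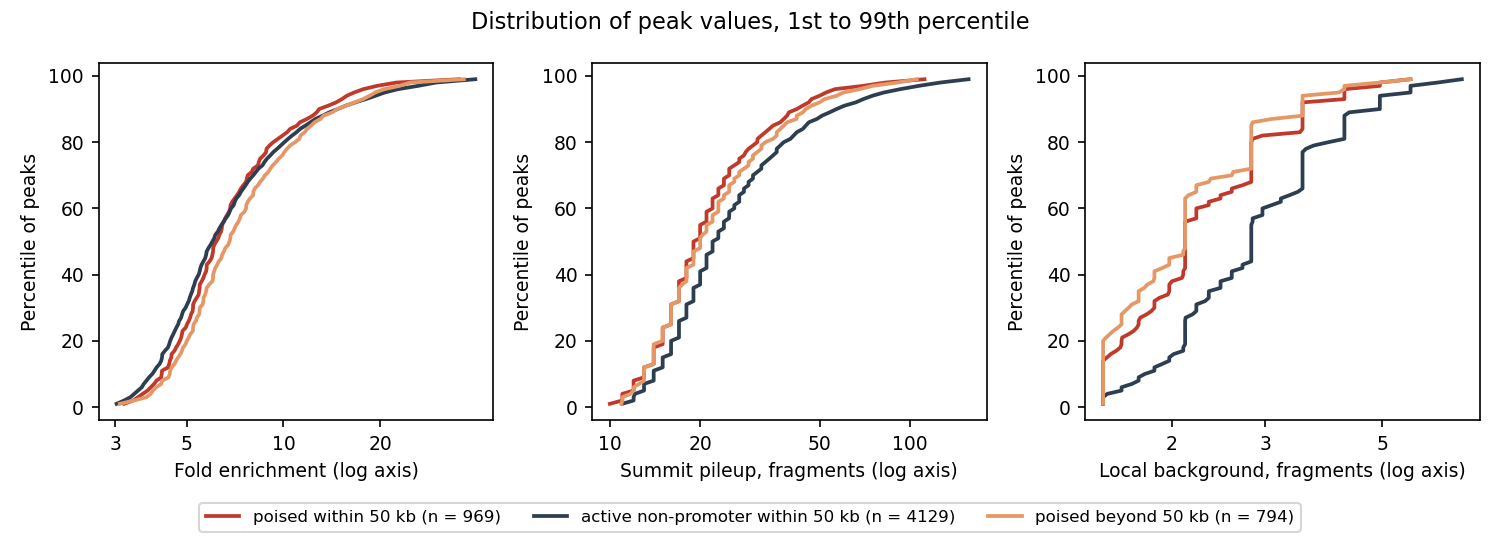
Percentile of peaks (vertical axis) against fold enrichment, summit pileup and local background (fragments, log axes) for poised peaks within 50 kb, active non-promoter peaks within 50 kb and poised peaks beyond 50 kb. The fold curves lie close together with medians of 6.18, 6.01 and 6.80, while the background curve of active peaks lies to the right, with a median of 2.83 against 2.12 in both poised sets.

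The strongest of these peaks stood far above the median. The highest, at chr15:62230788-62231380, reached 60.4-fold (51.2 to 70.9) from 149 fragments and lay in the body of Pvt1, a lncRNA gene next to the proto-oncogene Myc. Its nearest protein-coding body, Myc, lay 240724 bp away, so its name is a matter of position. The next, at chr1:135156243-135156752, had 59.5-fold enrichment (52.2 to 67.6) from 235 fragments and lay 238 bp beyond the body of Arl8a, which encodes a lysosomal small GTPase. It was the 1 peak of the 15 strongest that overlapped a TBX3 region, and none of the 15 overlapped H3K9ac or H3K4me3.

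A peak at chrX:99176663-99177069 had 55.6-fold enrichment (46.7 to 65.6), 27863 bp beyond the body of Efnb1, which encodes ephrin-B1, a membrane ligand of Eph receptors. It was 1 of 5 such peaks on chromosome X, which held 0.516% of poised peaks within 50 kb against 1.22% of all peaks. A peak at chr3:153849366-153849847 inside Asb17 had 49.0-fold enrichment (41.7 to 57.2). A peak in Sec11a, a subunit of the signal peptidase, had 42.2-fold enrichment (34.7 to 50.8) at chr7:80923160-80923552. Its deposited distance runs to the start of Nmb, the gene of the peptide neuromedin B, 18300 bp away, so body and assigned start named different genes here.

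The same held at chr19:25574130-25574631, where a 38.7-fold peak (31.6 to 47.0) lay in Dmrt1, a regulator of gonad development, and was assigned to the start of its neighbour Dmrt3. Upstream of Aldh1b1, a mitochondrial aldehyde dehydrogenase gene, the peak at chr4:45783609-45784077 reached 41.6-fold (35.4 to 48.5). Pcsk6, which encodes a proprotein convertase, held a 38.2-fold peak (31.6 to 45.6) at chr7:65893454-65893911. Ehf, an ETS factor known from epithelia, held a 37.8-fold peak (31.4 to 45.1) at chr2:103277686-103278185 and a weaker one of 5.76-fold, and both of its peaks in the list were poised.

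The other 6 of the 15 strongest ranged from 28.6-fold to 37.2-fold. In order of fold they were named after Aldh8a1, Tmem268, Mbl1, Slc30a7, Slc22a23 and Dclk3. The Aldh8a1 peak lay 181391 bp from that gene and was assigned to the start of 1700020N01Rik. Mbl1 encodes a mannose-binding lectin of the complement system and held its 33.5-fold peak (27.5 to 40.4) in the gene body. The 15 peaks had pileups of 70 to 235 fragments, and 7 of them lay outside every protein-coding body.

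**Figure D2:**
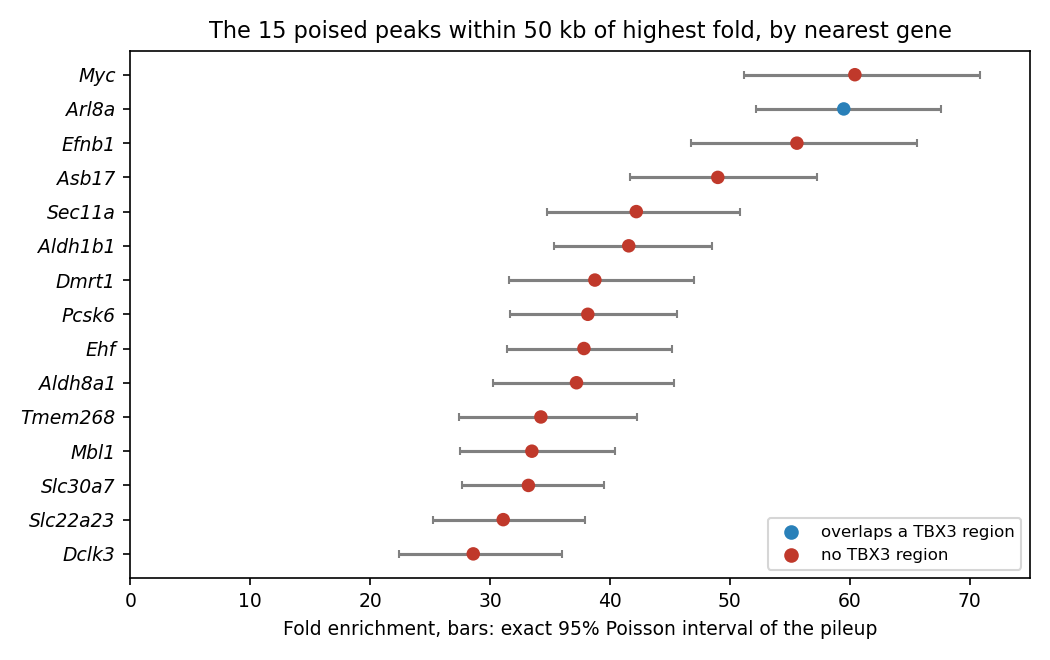
Fold enrichment (linear axis) of the 15 strongest poised peaks within 50 kb, by named gene, with the 95% counting interval. Values run from 60.4 at Myc to 28.6 at Dclk3, and the intervals of the 3 highest overlap.

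At the low end the weakest peak had 2.71-fold enrichment (1.64 to 4.24), at 1700122O11Rik. A 3.01-fold peak (1.87 to 4.61) stood in Kat2b, a histone acetyltransferase gene, and overlapped a TBX3 region. Peaks of 3.03-fold (1.83 to 4.75) from 17 fragments each stood at Nog, which encodes the BMP antagonist noggin, Klf9, Tacc2 and Lrp6. Of these weakest peaks, the one at Klf9 overlapped both H3K4me3 and H3K9ac.

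Overlap with regions that the class does not use set poised and active peaks far apart. By definition the active peaks overlapped H3K27ac and the poised ones did not. How far the other overlaps follow from that split was not tested. Of the 969 peaks, 110 (11.4%, 9.42 to 13.5) overlapped a TBX3 region, against 8.44% (6.60 to 10.6) of poised peaks beyond 50 kb, 31.6% (30.2 to 33.1) of active non-promoter peaks within 50 kb and 27% of all peaks. H3K9ac, an acetylation of active promoters and enhancers, overlapped 57 (5.88%, 4.49 to 7.55), against 3.90%, 50.7% and 46.0% in the same order. H3K4me3, typical of promoters, overlapped 46 (4.75%, 3.50 to 6.28), against 3.27%, 19.7% and 31.8%. The intervals of poised peaks within 50 kb and active peaks did not overlap for any of the 3, while those of the near and far poised peaks did. H3K9me3, a heterochromatin mark, overlapped 1 peak (0.103%), a 4.81-fold peak at Rbbp8nl, against 0.241% of all peaks.

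Among poised peaks the TBX3 share varied little with pileup. Across 4 bands of rising pileup, cut at the quartiles of the poised peaks within 50 kb, it was 11.7%, 12.5%, 10.2% and 11.1%, while in active peaks of the same bands it was 22.6%, 34.8%, 34.3% and 33.4%. Poised peaks with a TBX3 overlap had a median fold of 5.74 (5.45 to 6.05), against 6.29 (6.05 to 6.45) for those without. In 4 groups of rising fold, cut at the quartiles, the share was 14.8%, 12.3%, 8.50% and 9.75%.

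Both H3K4me1 files marked 549 of the poised peaks within 50 kb (56.7%), against 47.0% of poised peaks beyond 50 kb, 81.5% of active peaks and 52.5% of all peaks. TBX3 overlapped 14.8% (11.9 to 18.0) of peaks marked in both files and 6.90% (4.67 to 9.77) of those marked in 1. Among active peaks these shares were 33.7% and 21.2%, and TBX3 overlapped 25.9% (52 of 201) of the active peaks marked in neither file. The share was thus higher with both files than with 1 in either class, while among active peaks the intervals for 1 file and for neither file overlapped.

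After Arl8a, the strongest poised peaks with a TBX3 overlap were at Plekhh1 (22.7-fold, 18.2 to 28.0), Zfp516, which encodes a regulator of brown fat genes (17.8-fold, 13.8 to 22.5), and Lpp, which encodes a focal adhesion protein (17.2-fold, 12.7 to 22.8). Further down were Myl12b, a regulatory light chain of nonmuscle myosin (16.5-fold), Stc2, which encodes the secreted glycoprotein stanniocalcin 2 (14.6-fold), Crcp (14.1-fold) and Vdac2, an anion channel of the outer mitochondrial membrane (13.1-fold). Sestd1 (12.8-fold) and Zfp703 (11.8-fold) closed the 10 strongest. None of the 10 overlapped H3K9ac or H3K4me3.

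H3K9ac and H3K4me3 fell together on a small subset. They coincided at 24 poised peaks, which is 42.1% of those with H3K9ac and 52.2% of those with H3K4me3. Peaks with H3K9ac reached at most 16.5-fold and had a median of 5.47 (5.10 to 6.31). No H3K4me3, H3K9ac or TBX3 region overlapped 793 peaks (81.8%), whose median fold was 6.38. Of the marks in this table, these peaks carried H3K4me1, in a single case with H3K9me3.

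**Figure D3:**
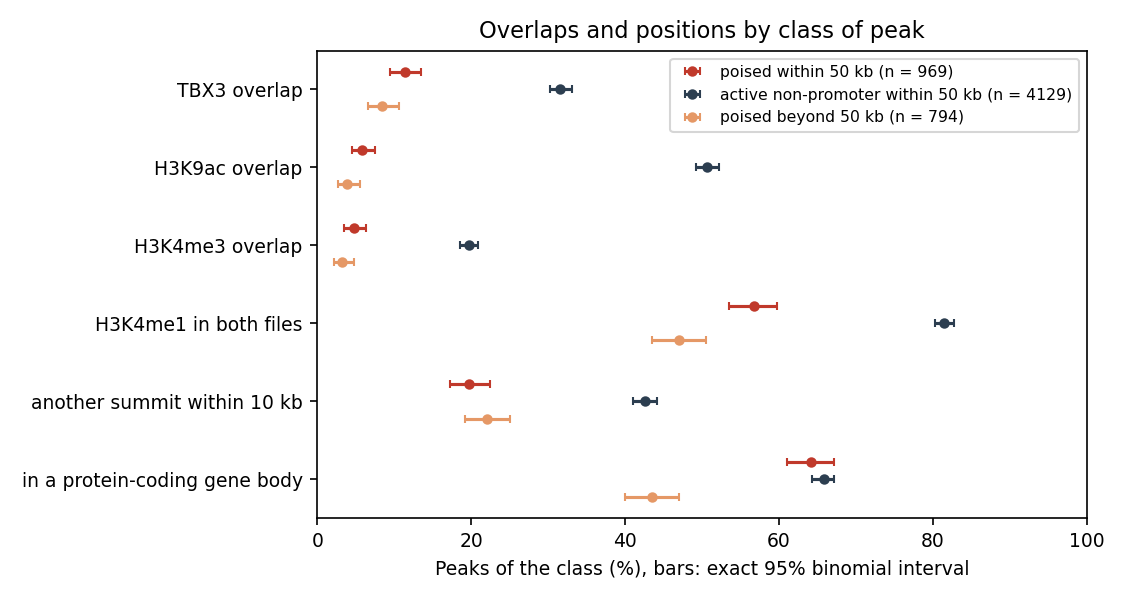
Share of peaks (%, horizontal axis) with each overlap or position, with exact 95% binomial intervals, for poised peaks within 50 kb, active non-promoter peaks within 50 kb and poised peaks beyond 50 kb. TBX3 overlap stands at 11.4%, 31.6% and 8.44%, H3K9ac at 5.88%, 50.7% and 3.90%.

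Within 50 kb, poised peaks were spread over all distances. The median absolute distance was 17110 bp, with quartiles of 8895 and 31140 bp. Upstream of the assigned start lay 403 peaks (41.6%, 38.5 to 44.8), against 39.7% of poised peaks beyond 50 kb, 41.2% of active peaks and 44.1% of all peaks. The median fold was 5.77 between 2000 and 5000 bp, 6.28 up to 10000 bp, 6.04 up to 25000 bp and 6.41 up to 50000 bp, and the intervals of these medians overlapped.

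Marks of promoters and acetylation were most frequent close to starts. H3K9ac overlapped 15 of 104 poised peaks between 2000 and 5000 bp (14.4%, 8.30 to 22.7). In the farther bins the share was 5.00% (2.31 to 9.28), 5.45% (3.26 to 8.48) and 4.23% (2.38 to 6.87). The interval of the nearest bin overlapped all of these but the last. In active peaks the H3K9ac shares were 61.0%, 53.6%, 49.8% and 45.6%. H3K4me3 overlapped 10.6%, 4.44%, 3.64% and 4.23% of poised peaks in the same bins. TBX3 overlapped 14.4%, 11.7%, 11.8% and 9.86% of poised peaks in the same bins, against 35.3%, 32.5%, 32.2% and 29.0% of active peaks.

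The body of a protein-coding gene held 622 summits (64.2%, 61.1 to 67.2), against 43.5% in poised peaks beyond 50 kb, 65.8% in active peaks within 50 kb and 58.8% in all peaks. A further 71 summits lay in the body of another gene. Median fold was 6.10 inside protein-coding bodies and 6.31 outside. By chromosome, poised peaks within 50 kb made up between 3.29% of peaks, on chromosome X, and 10.3%, on chromosome 14, where they were 53 of 517.

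**Figure D4:**
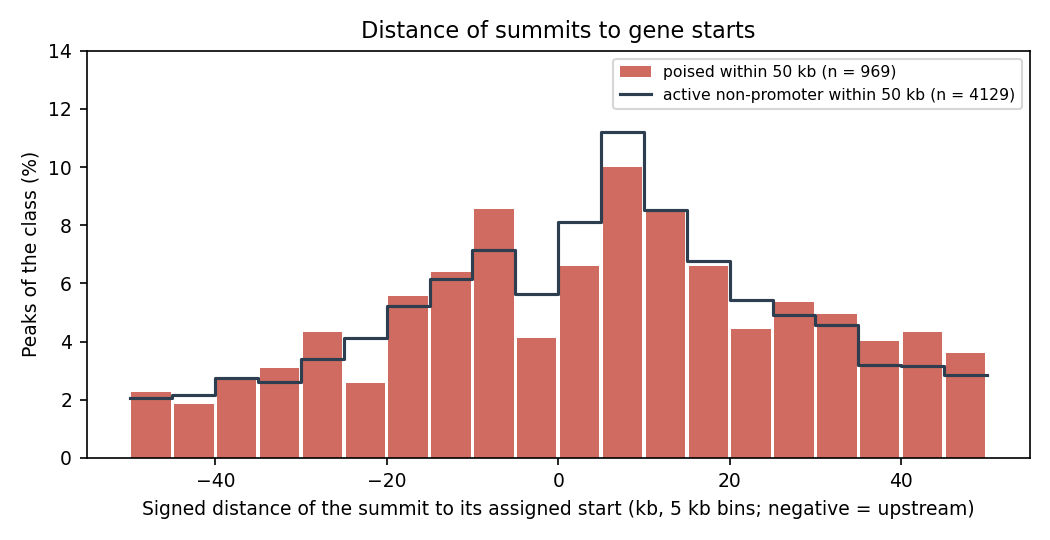
Signed distance of summits to the assigned start (kb, bins of 5 kb, negative values upstream) as a share of each class, with bars for poised peaks within 50 kb and a line for active non-promoter peaks within 50 kb. On either side both classes are fullest 5 to 10 kb from the start and thin out farther away, unevenly in poised peaks. No summit of these classes lies within 2000 bp of its assigned start. Of poised peaks 41.6% lie upstream, and of active peaks 41.2%.

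The peaks closest to the limit are given here as a description. Among the nearest inside it were summits at Gm30500 (49932 bp, 12.5-fold), Fgfr2 (49880 bp upstream, 8.34-fold) and Irx6 (49610 bp, 4.97-fold). Fgfr2 encodes a fibroblast growth factor receptor, and Irx6 encodes a homeobox factor. Just outside were summits at Kif16b (50041 bp upstream, 6.73-fold), Usp47 (50251 bp upstream, 9.52-fold), Kctd12 (50324 bp, 8.57-fold) and Rapgef5 (50331 bp upstream, 11.2-fold). The last of these lies 24 bp from the listed start of the lncRNA gene Gm31482. Nearest to an assigned start were summits named after Slc7a5 (2011 bp, 4.44-fold), Cdc6 (2013 bp, 4.17-fold), Ptpn13 (2043 bp upstream, 6.68-fold) and Slco2a1 (2080 bp, 8.34-fold).

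Poised peaks near genes were more isolated than active ones. The nearest other summit of any class lay at a median of 36730 bp (33140 to 40630), against 45090 bp for poised peaks beyond 50 kb, 14800 bp for active peaks and 25070 bp for all peaks. Another summit within 10 kb stood beside 191 (19.7%, 17.2 to 22.4), against 22.0%, 42.6% and 32.9% in the same order. Across the 4 bands of pileup the share was 19.9%, 20.7%, 19.3% and 19.2% in poised peaks and 39.7%, 42.5%, 42.9% and 44.1% in active peaks.

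Of the 191 neighbours, 108 (56.5%) were active non-promoter peaks, a class that makes up 50.2% of the list, and 44 (23.0%) were poised peaks, which make up 14.2%. Another 22 (11.5%) were active promoter peaks, a class that makes up 23.4%. Beside poised peaks beyond 50 kb, 52.6% of 175 neighbours were active non-promoter and 33.1% poised, so the poised share was higher there. Beside active peaks within 50 kb, 76.1% of neighbours were active non-promoter and 5.69% poised. Where the neighbour was an active non-promoter peak, the poised peak had the lower fold in 60 of 108 pairs and the higher in 48, with medians of 6.01 for the poised and 7.08 for the active peak. The smallest distance between 2 summits of the 969 was 288 bp, and no run of 3 or more of them followed each other within 10 kb.

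Named by position, the 969 peaks fell to 860 genes, of which 765 had 1, 82 had 2 and 13 had at least 3. Of these genes, 322 (37.4%) named no other peak, 424 (49.3%) also named an active non-promoter peak and 187 (21.7%) a promoter-class peak. The same shares were not computed for genes named by other sets of peaks. The start behind the deposited distance could be traced for 515 peaks and 482 genes. Of these 482 genes, 65 (13.5%) also had a promoter-class peak, against 337 of 1562 (21.6%) genes traced from active non-promoter peaks within 50 kb. An active non-promoter peak at any distance was also traced to 168 of the 482 (34.9%), so these sets can share genes.

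Myc named the most, with 4 of its 10 peaks. All 4 lay outside its short body, with the 60.4-fold peak in Pvt1 followed by peaks of 8.05-fold, 7.50-fold and 4.85-fold. Sorcs2, a sorting receptor gene, held 3 inside its body, at 17.9-fold, 9.26-fold and 4.19-fold. Rgma, which encodes a BMP co-receptor, had peaks of 16.1-fold, 13.8-fold and 8.38-fold, none of them in its body.

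Lpp had peaks of 17.2-fold, 8.73-fold and 8.40-fold, and the strongest overlapped TBX3. Galnt2, a glycosyltransferase gene, had peaks of 12.4-fold, 6.91-fold and 5.38-fold, and both weaker ones overlapped TBX3. Ubac2 (13.3-fold at most), Zswim6 (11.7-fold) and Apbb2 (11.2-fold), whose product binds the amyloid precursor protein, also named 3. So did Nav2, Sdk1, Igf1r, Lrch1 and Nfia, which tie with them, and their strongest ranged from 5.49-fold to 8.86-fold. These genes span from 5021 bp for Myc to 974090 bp for Sdk1.

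For gene lists, a gene was counted where its body, extended by 10 kb at both ends, held a summit, which need not make it the regulated gene. Poised peaks within 50 kb were counted at 763 of 21631 protein-coding genes (3.53%), and peaks of any class at 6475 (29.9%). Over 22 lists with 601 genes, 51 genes (8.49%) had at least 1, and 322 (53.6%) had a peak of any class. Among bound genes the share with a poised peak within 50 kb was 15.8% on the lists and 11.8% over all genes. The median of the strongest such peak was 6.32-fold on the lists and 6.25-fold over all 763 genes. Gene length moved with these counts, at a median of 73692 bp for the 763 genes, 39369 bp for list genes and 17329 bp for all genes, and its part in them was not tested.

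Of 42 BMP and TGF-beta genes 4 were counted (9.52%). Bmpr1b, a type I BMP receptor, had a single peak, poised, at chr3:142125472-142126005 with 21.4-fold enrichment (17.1 to 26.6). Bmp4, a ligand of outflow tract and septum formation, also had a single peak, of 4.42-fold (2.64 to 7.02), 7667 bp upstream, which overlapped TBX3 and H3K9ac. Bmp7 had 2 poised peaks among 9, of 4.29-fold and 3.90-fold, while its strongest peak of any class reached 27.1-fold. The receptor gene Tgfbr2 had 1 of 5.08-fold. The single peaks of Bmpr1b and Bmp4 had intervals that did not overlap.

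Of 39 genes of FGF and receptor tyrosine kinase signalling 3 were counted (7.69%). Fgf10, a mesenchymal ligand needed for lung and limb buds, had 1 peak, of 9.30-fold (6.29 to 13.3), 44531 bp inside the gene. Fgf20 had 1 of 10.5-fold (6.92 to 15.3) as its single peak, and Igf1r had 3 of 8, the strongest 6.80-fold. Of 46 Wnt genes 3 were counted (6.52%), namely the co-receptor gene Lrp6 (10.1-fold), the receptor gene Ror2 (5.97-fold) and Axin2, a feedback inhibitor (5.64-fold). Of 21 Notch genes Rbpj, the DNA-binding effector, was counted (8.82-fold). Axin2 and Rbpj each named a stronger poised peak farther than 10 kb out, of 8.38-fold and 17.3-fold. Of 20 hedgehog genes the receptor gene Ptch1 and Disp1, whose product releases the ligand, were counted, both with 4.49-fold.

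Axon guidance genes numbered 5 of 36 (13.9%), on a list of long genes with a median of 192935 bp. Slit3, a secreted ligand, had the 15.7-fold peak (11.2 to 21.4) assigned to Mir218-2. Efnb1 had 1 of 6.04-fold within 10 kb, beside the stronger one farther out. Ephb2, a receptor for B-type ephrins, had 2 peaks, both poised, of 5.38-fold and 5.08-fold, and Ntn1, the netrin ligand, had 1 of 5.77-fold beside a 39.8-fold peak of another class. The receptor gene Nrp2 was also counted, with 4.19-fold.

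Among 38 cardiac transcription factor genes 4 were counted (10.5%), against 22 with any peak. Meis1 (7.81-fold, 1 of 7 peaks), Meis2 (4.41-fold, 1 of 6) and Prdm16 (3.75-fold, 1 of 7) encode a pair of homeobox factors and a zinc finger factor. Tbx5 itself held 1 among 8 peaks, at chr5:119875035-119875250, with 3.25-fold enrichment (1.94 to 5.15), while its strongest peak reached 19.1-fold. The poised peak was the strongest of the gene's peaks at Meis1 and not at the other 3. Farther than 10 kb out, and so not counted, a poised peak named after Tbx3 reached 21.9-fold (18.6 to 25.5), 18736 bp from its body. Of 41 forkhead and SOX genes Sox6 was counted (5.77-fold, 2.44%). A stronger poised peak named after Sox9 (8.83-fold) lay 63080 bp from that gene and was not counted.

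Of 21 calcium handling genes 5 were counted (23.8%), against 17 with any peak. They were Stim1, the store calcium sensor (10.9-fold, 7.24 to 15.7), Hrc, a calcium-binding protein of the reticulum (7.83-fold, in the adjoining Trpm4 and with TBX3 overlap), and Camk2d, the main cardiac CaM kinase II gene (4.37-fold, with TBX3 overlap). Slc8a1, the sodium-calcium exchanger gene, had one of 4.24-fold and Casq2, cardiac calsequestrin, one of 3.84-fold. Farther than 10 kb out, each of these genes named a stronger poised peak, of 9.85-fold and 7.64-fold. Of 32 sarcomere genes 28 had a peak but 2 a poised one within 50 kb (6.25%), Nebl, which encodes nebulette (12.1-fold, 8.23 to 17.2), and Cmya5 (5.23-fold). Of 31 conduction and ion channel genes 25 had a peak and 2 a poised one (6.45%), Cacna2d1, a calcium channel subunit (8.68-fold), and Gjc1, connexin 45 (6.45-fold, its single peak).

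Genes at atrial fibrillation loci numbered 7 of 40 (17.5%), against 30 with any peak. Cav1, the caveolin gene, had a single peak, of 12.4-fold (8.91 to 16.8), and Zfhx3, a large homeodomain factor gene, had 2 peaks, both poised, of 9.62-fold and 6.09-fold, the stronger with TBX3 overlap. Nav2 had 3 poised peaks of 21, the strongest 8.86-fold. Slit3, Casq2 and Tbx5 are also on this list, as is Lrig1, whose peak of 6.31-fold lay in Slc25a26. Of 39 septation and congenital heart disease genes 4 were counted (10.3%). They were Myh11, smooth muscle myosin (18.3-fold, 14.9 to 22.4, its single peak), the chromatin remodeller genes Chd7 (17.3-fold, 13.1 to 22.6) and Chd4 (8.73-fold), and Evc2 of the primary cilium (8.46-fold).

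Smooth muscle and pericyte genes numbered 3 of 14 (21.4%), with Myh11, Lmod1 (8.86-fold) and Smtn (5.23-fold, with TBX3 and H3K9ac overlap). Endothelial and endocardial genes numbered 0 of 34, against 10 with any peak, and epicardial and fibroblast genes 0 of 24, against 6. At the 3.53% of all protein-coding genes, lists of this size would hold few such genes. Among collagens, laminins and integrins 3 of 47 were counted (6.38%), Col4a3 of basement membranes (18.5-fold, 13.6 to 24.7), Col25a1 (8.34-fold) and Itga6 (5.75-fold). Fatty acid oxidation genes numbered 3 of 28 (10.7%), namely Esrrg (5.24-fold, 1 of 19 peaks), Etfb (3.72-fold, the Gm39000 peak shown above) and Esrrb (3.20-fold).

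Neuronal genes numbered 3 of 26 (11.5%), with Csmd1 (10.5-fold), Rbfox3 (10.4-fold) and Cntnap2 (3.21-fold), and the list has a median length of 370256 bp. Limb genes numbered 4 of 34 (11.8%) through Fgf10, Meis1, Meis2 and Tbx5, and lung and foregut genes 2 of 24 (8.33%) through Fgf10 and Bmp4. Liver genes numbered 0 of 19, of which 2 had any peak. Across all lists 31 genes had a poised peak within 50 kb as their strongest peak, and 17 had no other kind.

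**Figure D5:**
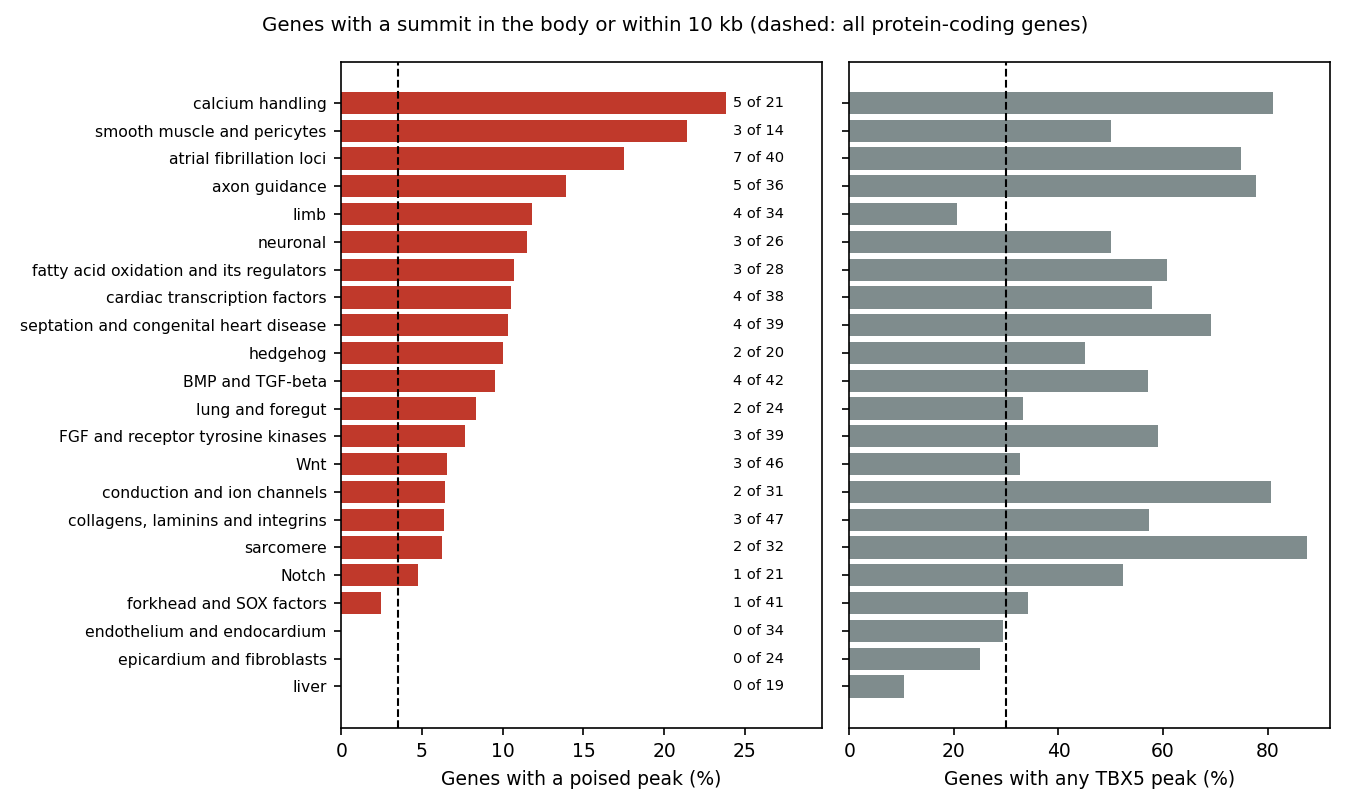
Share of the genes of each list (%) with a poised peak within 50 kb of a start in or within 10 kb of the gene, beside the share with any TBX5 peak. Calcium handling leads with 23.8%, 3 lists stand at 0, and the share over all protein-coding genes is 3.53%.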

How the data were processed

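TBX5_ChIP and Input samples of E14.5 CD-1 hearts gave single-end reads of 50 bases, per the labels' protocols. The submitters' processing notes name Bowtie2, SAMtools, MACS2, ChIPseeker and the build mm10, without versions or settings. Fold enrichment (a ratio over local background) and −log10 p and q are the authors' deposited values from 1 call on pooled samples. The deposited score is a whole-number form of −log10 q. Distances, classes and overlaps are the authors' too.

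The sources used here give no read depth per sample. Pileup and background were solved from fold, (pileup + 1)/(background + 1), and −log10 p as an upper Poisson tail, and whole-number pileups matched within 0.0005 for all 12436 peaks. This step was tested on simulated data. Fold intervals are exact 95% Poisson intervals of the pileup at a fixed background, shares have exact Clopper-Pearson intervals, and medians have order-statistic intervals. All cover counting error only. No test was run, since no value per replicate exists.

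Gene bodies and sequences are from RefSeq (GRCm38.p6). Starts were traced where the deposited distance equalled the distance to a listed start exactly (6998 of 12436 peaks). The start list is not complete and lacks chromosome 18. Gene lists held 1 symbol without a match. Named peaks are the 15 of highest and 5 of lowest fold (with ties), the 10 strongest with a TBX3 overlap, 4 on each side of the limit and 4 nearest a start, the 8 genes with the most, and up to 4 genes per list. A peak takes the name of the protein-coding body that holds its summit, otherwise the nearest. A few peaks that this rule names are not reported here. The peaks and lists were chosen with earlier results of these data known. Motif letters could not be searched in the peaks at large, for which no sequence was used here. Computations ran in Python 3.11.15 with scipy 1.17.1, pandas 2.3.3, matplotlib 3.10.9 and numpy 2.4.6.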

Additional observations from a re-analysis of the deposited data

How the results depend on the processing

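Of 54 alternative values, 46 stayed within the counting interval of the reported value or within 1.5 times the reported count. Some of these could not move. The H3K27me3 share was 0 under every setting by the class rule, and rebuilding the class from its marks returned the same 969 peaks. The median fold was 8.97 with only peaks of −log10 q of at least 10, which selects on strength, and the share of peaks with another such summit within 10 kb was then 9.24%. That share was 10.7% within 5 kb and 59.0% within 50 kb. The share in a gene body was 71.5% with all genes of the table, and 1572 genes had a poised peak with a window of 50 kb. Requiring both H3K4me1 files, an alternative chosen after seeing the data, left 549 peaks and a TBX3 share of 14.8%. Removing peaks assigned to hairpins or near other RefSeq starts, also chosen after seeing the data, left 943 and 946 peaks. Each removed few peaks and so could move values little, and no value moved beyond the bounds above. No paired analysis was possible because the peaks were called on pooled samples, and for the same reason no replicate could be left out. The T-box core in windows of 100 bp and whole peaks was not run, since no genome was used here. Depth limits the weakest peaks, where a summit of 9 fragments carries a wide interval, and peaks below the authors' threshold were not detectable.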
